A study of Mus musculus with 6 samples.

Results

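The Hedgehog receptors and Gli factors are 9 mouse genes: Ptch1, Smo, Gas1, Boc, Cdon, Gli1, Gli2, Gli3 and Sufu. They were chosen by name, with earlier results of these data known. All 9 were found by GENCODE M21 symbol among the 54752 genes listed for each library. RNA was sequenced from 3T3-L1 cells, a clonal line of mouse embryo fibroblasts widely used as a model of fat cell formation, in 3 libraries labelled 3T3-L1 adipocyte and 3 labelled 3T3-L1 preadipocyte. All 6 carry the strain label C57BL/6J, the tissue label Embryo, no treatment, and one growth text that names BCS media, DMI and FBS without saying which cells received what. The sources used here do not give the day of harvest. Whether the 3 libraries of a group came from separate cultures is not labelled, and the p-values therefore measure only how these libraries vary, which may be technical variation alone.

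Hedgehog proteins are secreted signals that are sensed largely at the primary cilium, the single antenna of most resting cells. Without ligand, the receptor Ptch1 keeps the membrane protein Smo inactive, and the Gli2 and Gli3 proteins are held by Sufu and partly cut into repressors. With ligand, bound through the co-receptors Gas1, Boc and Cdon, Smo becomes active, full-length Gli proteins reach the nucleus, and Gli1, Ptch1 and Hhip are induced as target genes. Activating the pathway is known to hinder fat cell formation in cultured mouse cells.

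In adipocytes 8 of the 9 genes were lower than in preadipocytes, and Gli1 was too scarce in both groups to be tested. The largest falls were of Gli3, to 5.42% of its preadipocyte level, and of Gas1, to 6.90%. Ptch1 and Sufu changed least, to 63.6% and 58.2%. These percentages come from the fold changes that edgeR fitted to counts scaled with TMM, a method that sets the bulk of genes level between libraries. In bulk RNA, fewer cells of a type and less RNA per cell cannot be told apart.

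Among all 14726 genes tested, 37.9% were called lower in adipocytes, so a lower call alone is common in this comparison. At least 2-fold lower calls were 21.8% of all genes and 6 of the 8 tested members, and 35.7% of all genes were called higher. The median log2 fold change was -1.81 over the 8 tested members and -0.06 over all tested genes. Library depth ran from 23890582 to 26314076 expected counts in adipocyte and from 22496486 to 24444491 in preadipocyte libraries. The labels were checked against marker genes. All 6 adipocyte markers (Adipoq, Plin1, Fabp4, Cidec, Pparg and Cebpa) rose and all 5 preadipocyte markers (Dlk1, Pdgfra, Pdgfrb, Thy1 and Cd34) fell. TPM is a level per transcript length, scaled within each library. The summed TPM of the adipocyte markers was 19170 to 21570 in adipocytes and 91.99 to 98.01 in preadipocytes. Adipocyte library 2 stood apart in ribosomal RNA, at 0.731% of counts, against 0.0428% to 0.0706% in the other 5 libraries. The calls of the 8 tested members held without it.

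Start regions are shown for the members with the largest falls, Gli3 and Gas1, for the activator gene Gli2, and for the receptor and target gene Ptch1. They are the 250 bases before the RefSeq start in GRCm38.p6, written 5′ to 3′ on the gene's strand. The Ptch1 stretch is chr13:63565736-63565985 (minus strand), inside a longer Ptch1 transcript. The Gli2 stretch is chr1:119053620-119053869 (minus strand). The Gli3 stretch is chr13:15463473-15463722 (plus strand), inside longer Gli3 transcripts and an exon of the opposite-strand gene Gm6556. The Gas1 stretch is chr13:60177536-60177785 (minus strand), inside an exon of the opposite-strand gene Gm48488. Capitals mark matches to any of the 4 motifs searched on both strands.
Ptch1: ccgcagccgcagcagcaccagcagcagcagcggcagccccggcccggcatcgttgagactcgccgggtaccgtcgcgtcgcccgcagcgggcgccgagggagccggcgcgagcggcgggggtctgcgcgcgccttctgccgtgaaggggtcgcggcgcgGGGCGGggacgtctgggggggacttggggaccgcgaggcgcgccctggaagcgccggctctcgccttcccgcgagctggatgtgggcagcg
Gli2: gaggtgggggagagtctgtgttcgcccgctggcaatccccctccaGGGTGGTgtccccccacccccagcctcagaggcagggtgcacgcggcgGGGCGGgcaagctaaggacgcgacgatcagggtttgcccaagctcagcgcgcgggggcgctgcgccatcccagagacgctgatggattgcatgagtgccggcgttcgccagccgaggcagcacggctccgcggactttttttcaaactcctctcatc
Gli3: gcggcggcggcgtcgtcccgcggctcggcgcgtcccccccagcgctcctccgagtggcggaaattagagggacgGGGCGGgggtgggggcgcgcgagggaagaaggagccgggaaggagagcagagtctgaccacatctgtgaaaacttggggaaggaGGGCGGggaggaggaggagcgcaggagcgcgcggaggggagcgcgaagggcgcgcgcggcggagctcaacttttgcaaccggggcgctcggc
Gas1: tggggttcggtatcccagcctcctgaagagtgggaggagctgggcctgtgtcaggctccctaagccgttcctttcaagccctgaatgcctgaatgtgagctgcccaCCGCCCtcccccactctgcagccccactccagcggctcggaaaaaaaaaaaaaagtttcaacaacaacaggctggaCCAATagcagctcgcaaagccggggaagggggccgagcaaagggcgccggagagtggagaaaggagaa

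Of the 9 members, 7 are in the RefSeq start table, without Gli1 and Boc. The Cdon stretch lies inside the Cdon gene and overlaps a Cdon exon. The share of G and C letters ran from 42.8% for Cdon to 78.4% for Ptch1, and was not set beside that of all stretches. The Gli consensus GACCACCCA was in none of these 7 stretches and in 0.225% of all 32851 stretches of the same length. Its inner part ACCACCC, which any consensus match also holds, was in 1 of the 7, Gli2, and in 3.92% of all. The GC box GGGCGG was in 5 of the 7 and in 32.7% of all, and CCAAT was in 2, Gas1 and Sufu, and in 33.8% of all. A match is a description of these letters and not a binding site.

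The receptor side of the pathway was read first. Ptch1 (ENSMUSG00000021466.12, chromosome 13, 63508328 to 63573598, GRCm38), which binds the ligand and restrains Smo, had 5.47, 5.69 and 6.81 TPM in adipocytes, against 11.75, 13.74 and 13.1 TPM in preadipocytes. All adipocyte libraries lay below all preadipocyte libraries, with a gap wider than the spread within either group. Such separation is common here. In TMM-scaled counts 39.7% of tested genes were without overlap and lower in adipocytes, and the share in TPM was not computed. In TMM-scaled counts per library size (CPM), Ptch1 averaged 31.3 ± 1.5 in adipocytes and 49.3 ± 1.7 in preadipocytes (SD, n = 3 each), a smaller difference than in TPM. Its log2 fold change by edgeR's quasi-likelihood test on counts was -0.65 (SE 0.077, adjusted p = 5.66e-05). Of all tested genes, 29.6% had a lower log2 fold change, so the change of Ptch1 was inside the ordinary range of this comparison.

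Smo (ENSMUSG00000001761.7, chromosome 6, 29735503 to 29761365), the signal-passing membrane protein, had 50.16, 44.36 and 42.01 TPM in adipocytes, against 150.25, 138.48 and 147.33 TPM in preadipocytes. The groups did not overlap, and the highest adipocyte library stood well under the lowest preadipocyte library. The log2 fold change of Smo was -1.15 (edgeR, SE 0.10, adjusted p = 9.97e-06). It was the most abundant member in adipocytes.

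The 3 co-receptors all fell. Gas1 (ENSMUSG00000052957.8, chromosome 13, 60174405 to 60177365) encodes a membrane-anchored protein first found as growth arrest specific. It had 35.89, 32.15 and 26.19 TPM in adipocytes, against 660.32, 615.25 and 660.81 TPM in preadipocytes. It was the most abundant member in preadipocytes and lost that place in adipocytes. The log2 fold change of Gas1 was -3.86 (edgeR, SE 0.14, adjusted p = 2.50e-08), and 3.22% of tested genes had a lower one. The opposite-strand gene Gm48488 overlaps Gas1 and had 98.1 expected counts in adipocytes and 1018 in preadipocytes, against 4589.9 and 77167 for Gas1 itself. Strandedness is not given in the sources used here, so reads of the 2 genes cannot be told apart where they overlap.

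Boc and Cdon encode related immunoglobulin-type co-receptors. Boc (ENSMUSG00000022687.12, chromosome 16, 44485049 to 44558897) had 14.86, 14.37 and 15.45 TPM in adipocytes, against 66.87, 65.69 and 69.15 TPM in preadipocytes. Cdon (ENSMUSG00000038119.15, chromosome 9, 35421128 to 35507652) had 13.78, 15.02 and 14.57 TPM in adipocytes, against 68.35, 81.3 and 81.25 TPM in preadipocytes. The 2 genes had similar levels in each state, and their ranges overlapped within both groups. Within each preadipocyte library Cdon was above Boc, while in adipocytes the order varied between libraries. For Boc the log2 fold change was -1.65 (edgeR, SE 0.072, adjusted p = 8.46e-08). For Cdon it was -1.97 (edgeR, SE 0.078, adjusted p = 4.95e-08).

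**Figure D1:**
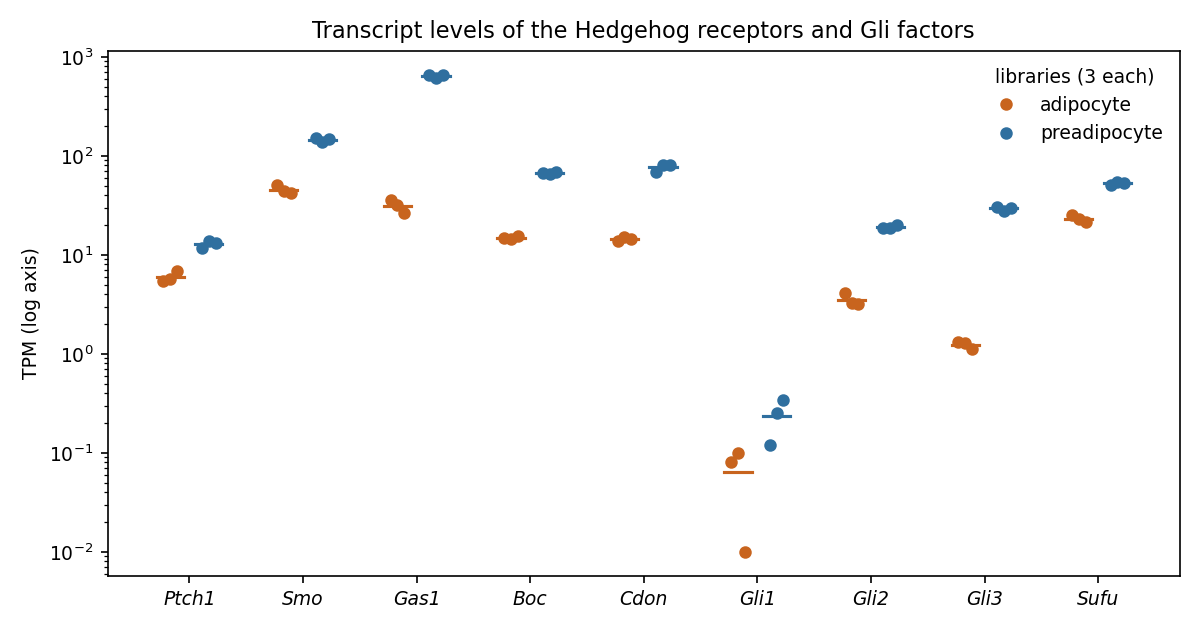
TPM on a log axis for the 9 members, with 1 point per library (3 adipocyte, 3 preadipocyte) and a line at each group's mean. Gas1 averaged 31.4 TPM in adipocytes and 645.5 TPM in preadipocytes, and every member has its 3 adipocyte points below its 3 preadipocyte points. In TMM-scaled counts 39.7% of tested genes were without overlap and lower in adipocytes, and the share in TPM was not computed.

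The Gli factors carry the signal to the genome. Gli3 (ENSMUSG00000021318.15, chromosome 13, 15463235 to 15730026), known mainly as the source of the repressor form, had 1.32, 1.28 and 1.11 TPM in adipocytes, against 30.63, 27.81 and 29.95 TPM in preadipocytes. Every adipocyte library was far below every preadipocyte library. Its log2 fold change of -4.21 (edgeR, SE 0.099, adjusted p = 3.31e-09) was the largest fall of the 8 tested members, though with limma on log2(TPM + 1) Gas1 fell more. In the edgeR fit 351 of 14726 tested genes had a lower log2 fold change. Gm6556, an opposite-strand gene that overlaps its start, had 10.1 expected counts in adipocytes and 185.7 in preadipocytes, against 177.9 and 3816.3 for Gli3.

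Gli2 (ENSMUSG00000048402.14, chromosome 1, 118834132 to 119053619), the main activator of the family, had 4.11, 3.26 and 3.19 TPM in adipocytes, against 18.84, 18.85 and 20.11 TPM in preadipocytes. The groups did not overlap, and Gli2 kept a larger share of its preadipocyte level than Gli3 did. By edgeR it was 3.99-fold lower (SE 0.11 on the log2 scale, adjusted p = 3.28e-07).

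Gli1 (ENSMUSG00000025407.7, chromosome 10, 127329882 to 127341974), an activator and the most used readout of an active pathway, had 3, 1 and 1 counts in adipocytes, against 7, 10 and 16 counts in preadipocytes. Its level was 0.01 to 0.1 TPM in adipocytes and 0.12 to 0.34 TPM in preadipocytes, the lowest of the members in both. It missed the filter on low counts. The rate in adipocytes was lower than in preadipocytes by a factor of 5.69 (exact 95% interval 2.21 to 18.7, counting error only). Adipocyte library 1 held 3 of the 5 adipocyte counts, and without it the factor was 9.37 (exact 95% interval 2.40 to 80.6). Preadipocyte library 3 held 16 of the 33 preadipocyte counts, and without it the factor was 4.52 (exact 95% interval 1.60 to 15.7). With the filter removed, edgeR gave Gli1 a log2 fold change of -2.36 (SE 0.65, adjusted p = 0.0043), and then all 9 members were called lower, where 21.4% of 26772 genes were.

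Sufu (ENSMUSG00000025231.16, chromosome 19, 46396896 to 46488804), which holds Gli proteins in the cytoplasm, had 25.06, 22.76 and 21.33 TPM in adipocytes, against 50.29, 53.89 and 53.72 TPM in preadipocytes. The groups did not overlap, but in fold terms the gap was narrow beside that of Gli2 and Gli3. The log2 fold change of Sufu was -0.78 (edgeR, SE 0.082, adjusted p = 2.66e-05), and 26.3% of tested genes had a lower log2 fold change.

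Counts scaled with TMM did not overlap between the groups for any of the 9 members; 39.7% of tested genes were without overlap and lower in adipocytes. The call of each of the 8 tested members held under all 16 alternative settings. Scaling matters for the size. With total counts alone the median gene moved by -0.33 on the log2 scale, and Ptch1 and Sufu then read -0.98 and -1.11. With limma on log2(TPM + 1) the median gene moved by -0.48, and those genes read -0.99 and -1.16. That setting called 8328 genes lower over the whole table, against 5575 by edgeR with TMM. A lower level in TPM is thus more common, and the share of all genes without overlap in TPM was not computed.

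**Figure D2:**
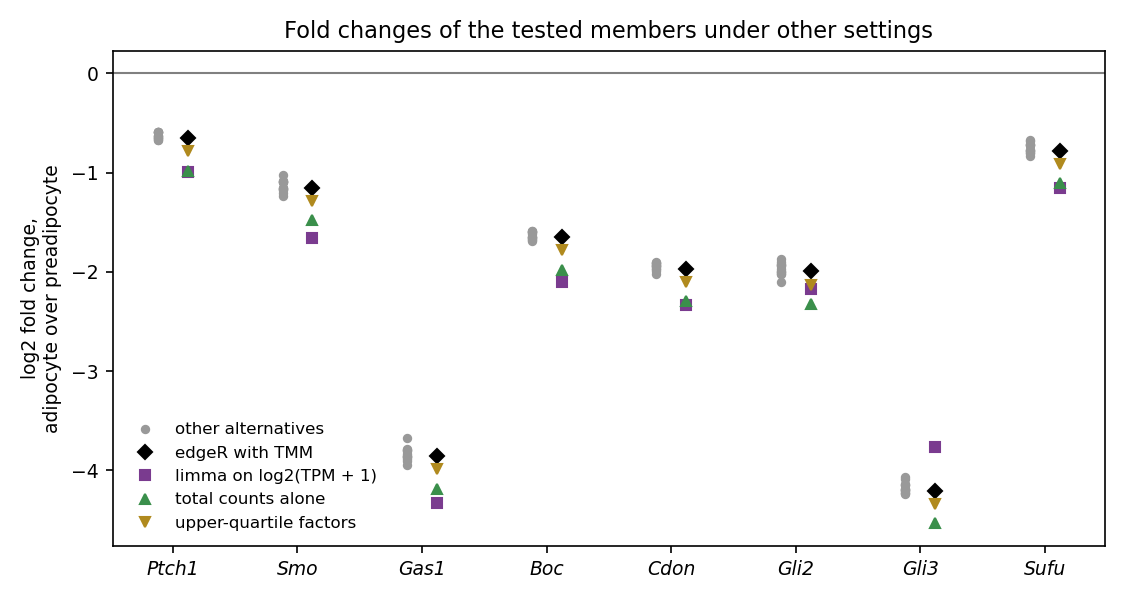
Log2 fold change (adipocyte over preadipocyte) of the 8 tested members under edgeR with TMM and the 16 alternatives, 1 mark per setting. All marks lie below 0. Gli3 has the lowest value in each setting but limma on log2(TPM + 1), where Gas1 lies below it, and Ptch1 has the value nearest to 0 in all of them.

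The order of levels differed between the states. In adipocytes it ran Smo, Gas1, Sufu, Boc, Cdon, Ptch1, Gli2, Gli3 and Gli1 by mean TPM. In preadipocytes it ran Gas1, Smo, Cdon, Boc, Sufu, Gli3, Gli2, Ptch1 and Gli1. Boc and Cdon were the only neighbours with overlapping ranges in either group. The deposited FPKM gave the same orders, with Cdon and Boc apart in preadipocytes.

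Because the members fell by unequal amounts, their ratios changed within libraries, where scaling between libraries plays no part. Gli2 over Gli3 in TPM was 3.11, 2.55 and 2.87 in adipocytes, against 0.615, 0.678 and 0.672 in preadipocytes. Gli3 thus exceeded Gli2 in TPM in each preadipocyte library and was the scarcer of the pair in each adipocyte library. In expected counts Gli2 exceeded Gli3 in all 6 libraries, in preadipocytes with 1544, 1437 and 1622 against 1259, 1183 and 1374. The higher Gli3 in preadipocytes therefore rests on the transcript lengths used for TPM. Sufu over the sum of Gli2 and Gli3 was 4.86 ± 0.22 in adipocytes and 1.08 ± 0.070 in preadipocytes (SD, n = 3 each). Gas1 over the sum of Boc and Cdon was 1.07 ± 0.19 in adipocytes and 4.49 ± 0.36 in preadipocytes (SD, n = 3 each). Smo over Ptch1 was 6.17 to 9.17 in adipocytes and 10.1 to 12.8 in preadipocytes. These ratios were chosen after the values were seen. The groups did not overlap for any of the 6 ratios computed. The 2-sided exact permutation p was 0.1 for each, also after Benjamini-Hochberg adjustment, the smallest that 3 against 3 libraries allow. Because the ratios were picked for their values, neither the separation nor this p is a test of them.

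**Figure D3:**
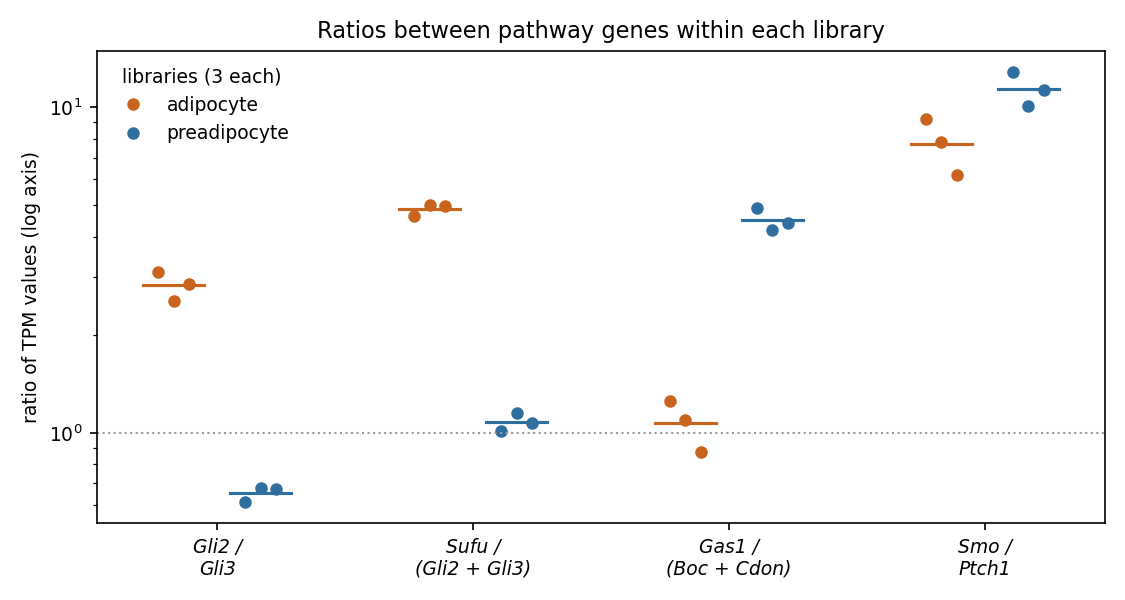
Ratios of TPM values within each library on a log axis, with 1 point per library, a line at each group's mean and a dotted line at 1. Gli2 over Gli3 lies above 1 in the 3 adipocyte libraries (mean 2.85) and below 1 in the 3 preadipocyte libraries (mean 0.655).

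The rest of the pathway was read from 5 lists, drawn up with earlier results of these data known, so their counts are no test. They hold 42 genes, of which 32 had enough counts. Of these, 7 were higher and 17 lower, with a median log2 fold change of -0.50. Over all tested genes 35.7% were higher and 37.9% lower, with a median of -0.06. The decoy receptor gene Hhip, a target like Ptch1, was too scarce to test and had 1 count in adipocytes and 15 in preadipocytes, a factor of 12.9 lower (exact 95% interval 1.99 to 544.8). The endocytic receptor gene Lrp2 had 1 count in adipocytes and 2 in preadipocytes. Gpc3, a glypican that competes for ligand, had 0 counts in adipocytes and 10 in preadipocytes, which is at least 2.88-fold lower at a floor of 3 counts over the adipocyte libraries.

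No ligand transcript was seen at a level that could be tested. Shh and Dhh had 0 counts in all 6 libraries, which allows up to 0.0443 CPM in adipocytes and 0.0383 CPM in preadipocytes. Ihh had 11 counts in adipocytes and 10 in preadipocytes. The tested genes of ligand processing and release all fell, where 37.9% of all tested genes did. Tested here were the acyltransferase gene Hhat (-1.15 on the log2 scale), the release transporter gene Disp1 (-0.85) and the secreted carrier gene Scube3. Scube3 read -2.59 (edgeR, SE 0.38, adjusted p = 0.00025). Of its relatives, Scube1 had 2 counts in adipocytes and 0 in preadipocytes, and Scube2 had 0 counts in adipocytes and 7 in preadipocytes, which is at least 2.01-fold lower.

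Among 9 regulators of Smo and of the pathway at the cilium, 5 fell and 3 rose, where 37.9% and 35.7% of all tested genes did. Gpr161, a ciliary receptor that restrains the pathway through cyclic AMP, had 0.44 to 0.53 TPM in adipocytes and 7.66 to 8.93 TPM in preadipocytes. Its log2 fold change of -3.63 (edgeR, SE 0.11, adjusted p = 1.06e-08) was close in size to that of Gas1. Evc and Evc2, which form the complex that passes the signal from Smo at the base of the cilium, fell (log2 fold changes -1.87 and -1.04), as did their partner genes Efcab7 (-1.64) and Iqce (-0.60). The kinase gene Grk2 (0.58), the arrestin gene Arrb2 (0.56) and the ubiquitin ligase gene Mgrn1 (0.33) rose. None of these 3 rises passed with limma on log2(TPM + 1). Those of Arrb2 and Mgrn1 also failed with total counts alone. With the effective length offset Arrb2 read higher, at 0.67, but did not pass (edgeR adjusted p = 0.054). The call of Mgrn1 was also lost without adipocyte library 1 (0.22) or preadipocyte library 2 (0.27) or 3 (0.31). Mosmo, a brake on Smo levels, did not pass at -0.33, but was called lower with the replicate number as a block (-0.34) and without adipocyte library 3 (-0.45).

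Of 10 genes that process Gli proteins, 2 were higher, 3 lower and 5 did not pass, with a median log2 fold change of -0.03. These counts are not above the shares over all tested genes, 35.7% higher and 37.9% lower. Prkaca, a catalytic subunit of protein kinase A, which marks Gli2 and Gli3 for cutting, had 251.27 to 265.61 TPM in adipocytes and 110.85 to 113.54 TPM in preadipocytes. Its log2 fold change was 1.78 (edgeR, SE 0.075, adjusted p = 7.43e-08), while the second subunit gene Prkacb fell (-0.54). The ubiquitin ligase subunit gene Btrc fell (-0.46), and the kinase gene Stk36 had the largest fall of the list (-1.16). The ubiquitin ligase gene Cul3 passed narrowly at 0.33 (edgeR adjusted p = 0.046) and kept its call under 7 of 16 alternatives. It was lost with total counts alone (0.01) and, of the fits without 1 library, without adipocyte library 2 (0.37) or 3 (0.26) and without preadipocyte library 1 (0.25) or 3 (0.36). Kif7 (-0.17), Spop (-0.04) and Ulk3 (-0.02) did not pass, but were called lower with total counts alone (-0.50, -0.37 and -0.34). The kinase genes Gsk3b (0.28) and Csnk1a1 (0.25) did not pass, but were called higher with the replicate number as a block (0.28 and 0.25) and without adipocyte library 1 (0.44 and 0.38).

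Of 12 genes reported as Hedgehog targets in various tissues, 10 were tested, with 6 lower and 2 higher. Over all tested genes 37.9% were lower and 35.7% higher. Gata2, a factor that hinders fat cell formation, had 0.06 to 0.34 TPM in adipocytes and 11.83 to 13.37 TPM in preadipocytes (log2 fold change -5.88, edgeR SE 0.22, adjusted p = 3.47e-08). Bmp4 had 0 counts in adipocytes and 45 in preadipocytes, at least 12.9-fold lower. The nuclear receptor gene Nr2f2 (-1.69) and the transcription factor gene Snai1 (-2.35) fell. The cyclin gene Ccnd2 had the largest rise of the list at 2.18 (edgeR, SE 0.11, adjusted p = 1.73e-07), whereas its relative Ccnd1 fell at -4.36 (edgeR, SE 0.11, adjusted p = 5.22e-09). The forkhead gene Foxf2 rose (0.98). Its relative Foxf1 had 1 count in adipocytes and 9 in preadipocytes, a factor of 7.76 lower (exact 95% interval 1.08 to 340.3). With the filter on low counts removed, Foxf1 did not pass (edgeR adjusted p = 0.1002). Gata3 fell (-1.37), a call lost with the effective length offset (-0.05) and with limma on log2(TPM + 1) (-0.22). Bcl2 did not pass at -0.43, but was called lower with the replicate number as a block (-0.43) and without preadipocyte library 1 (-0.58). Foxl1 did not pass at 0.08, and Mycn had 0 counts in adipocytes and 1 in preadipocytes. These genes have many other regulators.

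**Figure D4:**
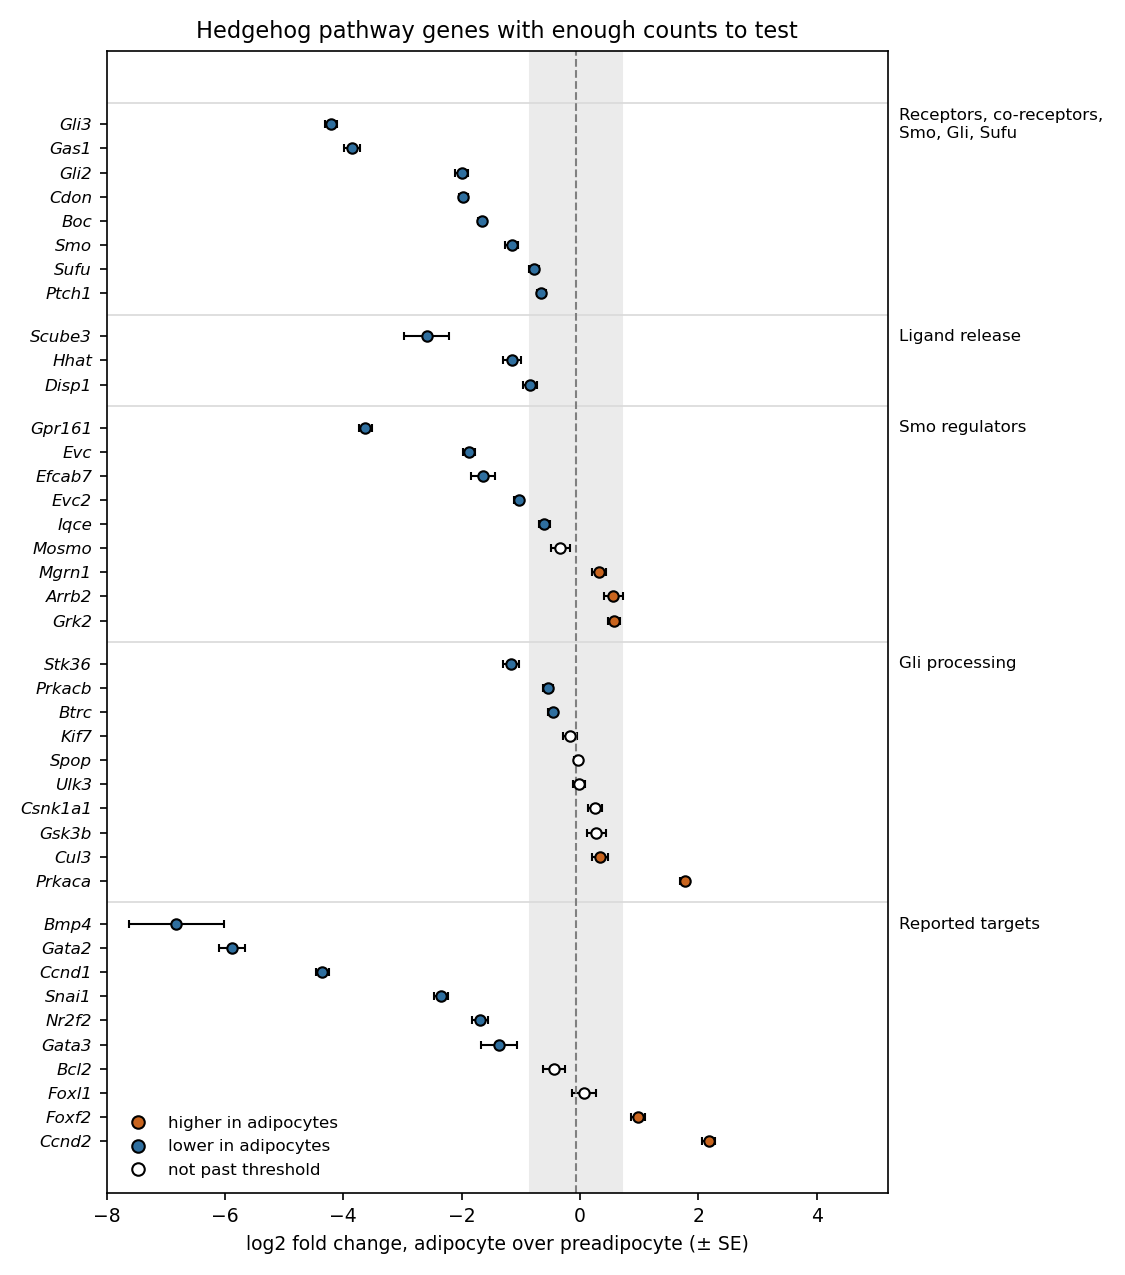
Log2 fold change (adipocyte over preadipocyte, ± SE) of the 8 tested members and 32 other Hedgehog genes, coloured by call; the grey band spans the interquartile range of all 14726 tested genes (-0.84 to 0.72) and the dashed line is their median. Of the tested members 6 lie left of the band, and Ccnd2, a reported target, is the rightmost gene at 2.18.

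Genes of the primary cilium, where the members act, were mostly lower. Their list was also drawn up with earlier results known, so its counts are no test. Of 22 such genes, all tested, 16 fell, 12 of them at least 2-fold, with a median log2 fold change of -1.02. Over all tested genes 37.9% were lower, 21.8% were lower by at least 2-fold, and the median was -0.06. Those of the transition zone, the gate at the base of the cilium, fell in 4 of 4 cases. Rpgrip1l had the largest fall, with a log2 fold change of -2.90 (edgeR, SE 0.15, adjusted p = 2.02e-07). Tmem67 averaged 3.96 CPM in adipocytes and 15.8 CPM in preadipocytes. B9d1 stood at 31.2% and Tctn1 at 32.8% of their preadipocyte level. Arl13b (-1.71), Inpp5e (-0.98) and Tulp3 (-1.01), which set the membrane content of the cilium, fell too. The motor subunit genes Kif3a (0.00) and Kif3b (0.06) and the transport gene Ift172 (-0.10) did not pass, but were called lower with total counts alone (-0.32, -0.27 and -0.43). Ift20 (0.34) and Ift140 (0.26) rose, but neither passed with upper-quartile factors, total counts alone or limma on log2(TPM + 1). Dync2h1 did not pass at -0.37, but was called lower with the replicate number as a block (-0.38), without adipocyte library 3 (-0.51) and without preadipocyte library 1 (-0.46).

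**Figure D5:**
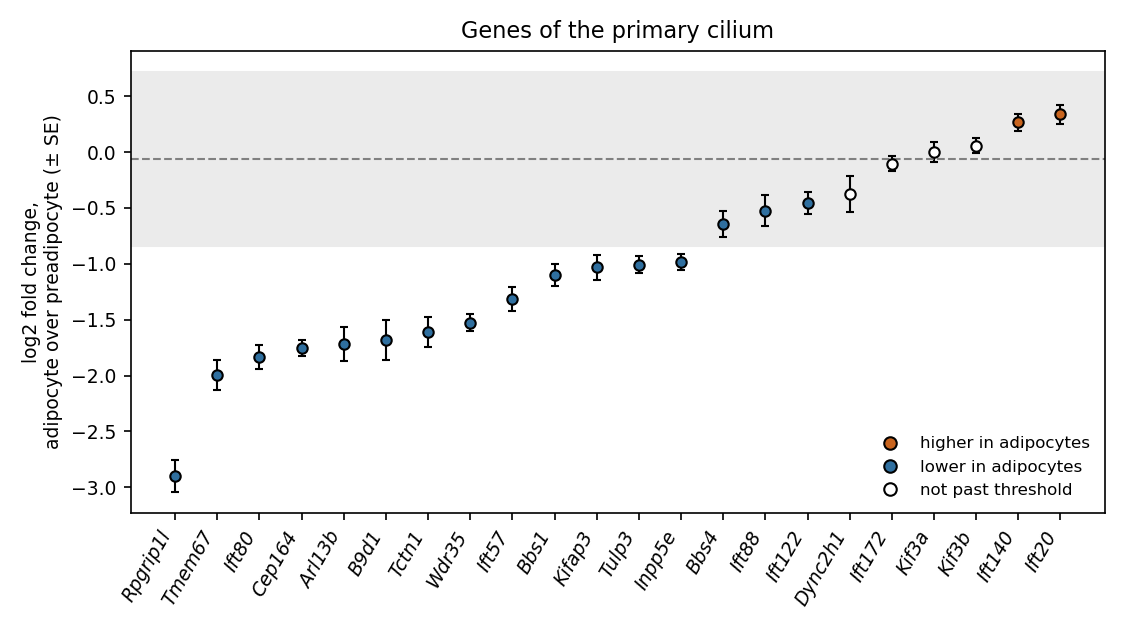
Log2 fold change (adipocyte over preadipocyte, ± SE) of the 22 cilium genes, ordered by size and coloured by call, with the interquartile range of all tested genes as a grey band and their median as a dashed line. Rpgrip1l has the lowest value at -2.90, and 16 genes were called lower.

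Cell state moved with these results. All 8 listed cell cycle genes fell, where 37.9% of all tested genes did. The log2 fold changes of the 8 lay between -3.68 for Mki67 and -0.63 for Cdk1. Their summed level was 69.6 to 71.8 TPM in adipocytes and 234.8 to 243.5 TPM in preadipocytes. The 5 preadipocyte markers stood at 4.33% to 22.5% of their preadipocyte level in adipocytes. Gli3 and Gas1 lay inside that range, Gli2 and Cdon just above it at 25.1% and 25.5%, and the other tested members higher. The part of the cell cycle and preadipocyte genes in the changes of the members was not tested.

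Markers of other cell types were low, with some exceptions. The 5 osteoblast markers summed to 3.51 to 3.79 TPM in adipocytes and 39.1 to 41.4 TPM in preadipocytes, and Runx2, which fell (-3.83), averaged 2.11 TPM in adipocytes and 39.4 TPM in preadipocytes. Alpl rose (3.77), with 87 counts in adipocytes and 7 in preadipocytes. Sp7 rose (2.72), with 42 counts in adipocytes and 7 in preadipocytes, and read 3.33 without preadipocyte library 1 and 2.13 without preadipocyte library 3. With limma on log2(TPM + 1) Alpl read 0.87 and Sp7 0.26, and Bglap had 0 counts in adipocytes and 5 in preadipocytes. The 4 chondrocyte markers summed to 1.98 to 2.61 TPM in adipocytes and 35.8 to 46.1 TPM in preadipocytes, mostly from Sox9, which fell (-3.80). Of 4 muscle markers, Myod1, Myog and Pax7 had no count in any library and Des rose (5.45), with 48.3 to 55.1 TPM in adipocytes, against 1.29 to 1.84 TPM in preadipocytes. Macrophage and endothelial markers summed to at most 1.19 and 0.31 TPM in adipocytes, and at most 1.88 and 0.68 TPM in preadipocytes, with Adgre1 at 0. Of these, Csf1r fell (-3.29) on 10 counts in adipocytes and 117 in preadipocytes. It read -3.96 without adipocyte library 1, -2.65 without adipocyte library 3 and -0.67 with limma on log2(TPM + 1). The part of these markers in the results was not tested.

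For each tested member the gene with the most similar profile over the 6 libraries was found among 12177 named genes, as the smallest distance between log2(CPM + 0.5) values centred on each gene's mean. For Ptch1 the 3 nearest were Sdc4, Scmh1 and Zc3h13 (distances 0.078, 0.083 and 0.085). For the others the nearest were Erf for Smo, Cx3cl1 for Gas1, Snhg18 for Boc, Serinc5 for Cdon, Il17ra for Gli2, Sulf2 for Gli3 and Pea15a for Sufu. Their distances ran from 0.068 for Serinc5 to 0.118 for Cx3cl1. This distance takes in the size of the change as well as the pattern over libraries.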

How the data were processed

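Expected counts, TPM, FPKM and effective lengths were deposited by the authors as 1 gene table per library, in the layout of RSEM per the file headers. The deposited expected counts are estimates that are not scaled between libraries, and the TPM and FPKM the authors deposited are scaled within each library. RSEM, Bowtie, Bowtie2 and DESeq2 and the builds GRCm38 and mm10 are named in the submitters' processing notes, with no version or role. Of 54752 identifiers, 54723 matched GENCODE M21. Expected counts were rounded and tested with edgeR 4.0.16 (R 4.3.3), its quasi-likelihood F-test after TMM scaling and the filterByExpr rule, with Benjamini-Hochberg adjustment over all tested genes and a threshold of 0.05. The step was also run on counts simulated from the kind of model that edgeR fits, with few genes changed. That run cannot check the scaling in a comparison where most genes change, and no result rests on it. Alternatives used DESeq2 1.42.0, limma 3.58.1 and other scalings, filters and subsets of libraries. Each SE given with an edgeR log2 fold change was derived, as the size of that change over the square root of the F statistic.

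The members and lists were chosen with earlier results of these data known. Named were all members, the largest change in each direction of each list and the genes too scarce to test; other list genes were named after their values were seen. Of the listed pathway genes, 2 are not reported here and enter no count of the lists. The closest pair of libraries, preadipocyte 2 and 3, still differed beyond counting noise (chi-square over its degrees of freedom 2.85), so each library was kept. Deviations from group means correlated at 0.64, 0.29 and 0.27 between libraries numbered 1, 2 and 3 over 14520 genes, each above 0.1, and between -0.55 and 0.43 for libraries of different number. The highest of these, adipocyte 3 with preadipocyte 2, exceeds 2 of the 3 same-number values. The rule that each same-number value exceeds 0.1 was met. With numbers 2 and 3 swapped, the values 0.16 (adipocyte 2 with preadipocyte 3) and 0.43 meet it too. The rule therefore cannot tell these pairings apart. The blocked fit assumes that equal numbers pair the samples, and is given where it changes a call. The labels do not say what the numbers share. Start regions come from RefSeq. Intervals and floors (3 counts over the 3 libraries of a group) cover counting error only.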

Additional observations from a re-analysis of the deposited data

How the results depend on the processing

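All 8 tested members kept their call under the 10 alternatives that keep every library and the 6 that leave out a library. The number called lower was 8 or 9, and none was called higher. The widest range of the 8 was that of Gli3, whose log2 fold change ran from -4.53 with total counts alone to -3.77 with limma on log2(TPM + 1). With the replicate number as a block, 8 members were lower and 0 higher, and 5763 genes were higher and 6212 lower over the whole table, against 5252 and 5575 without the block. In the lists the block changed the calls of Mosmo, Gsk3b, Csnk1a1, Bcl2 and Dync2h1, as given above, and no other. Small rises depended on scaling. Other Hedgehog genes called higher numbered 7 with TMM, against 4 when only total counts set the scale and 3 under limma on log2(TPM + 1). Of the cilium genes, 0 were called higher with upper-quartile factors, total counts alone or limma on log2(TPM + 1), against 2. Over all genes, 3266 were called higher with limma on log2(TPM + 1), against 5252. The share of calls that were higher was 48.5% by TMM and 42.3% by upper-quartile factors. It was 34.4% when only total counts set the scale, and 28.2% under limma on log2(TPM + 1). With limma on log2(TPM + 1), which compresses low levels, the falls of Scube3 (-0.48), Gpr161 (-2.65), Gata2 (-3.55), Cd34 (-1.54) and Mki67 (-2.33) and the rise of Des (4.33) read smaller by over 1.5 times, and the falls of Evc (-2.48), Iqce (-1.24) and Inpp5e (-1.64) larger. Depth limits Gli1, the ligands, Hhip and Foxf1, which rest on few counts. RNA levels say nothing of Gli protein processing or of Smo at the cilium.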

Other observations

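Ratios between gene pairs outside the members also differed between the states within libraries. Prkaca over Prkacb in TPM was 10.5 ± 1.2 in adipocytes and 2.18 ± 0.29 in preadipocytes (SD, n = 3 each). Ccnd2 over Ccnd1 was 74.2, 83.2 and 107.9 in adipocytes, against 0.903, 0.899 and 0.875 in preadipocytes. Both pairs were chosen after their values were seen. The 2-sided exact permutation p was 0.1 for each, the smallest that 3 against 3 libraries allow, and is no test of them.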
